A study of Mus musculus with 6 samples.

Results

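C2C12 cells, an established line of mouse skeletal muscle myoblasts, were compared with and without tumour necrosis factor alpha (TNF-α) while they were kept in growth medium. The comparison rests on 2 of the 6 arrays of the study: cells in 10% fetal bovine serum (FBS) with 50 ng/ml TNF-α for 24 h, and cells in 10% FBS with no addition. The difference taken throughout is the log2 level on the TNF-α array minus the log2 level on the untreated array, with a gene's level being the mean of the probe sets that name it alone. The other 4 arrays are a further growth-medium array (10% FBS, 10 nM BTZ for 24 h) and 3 arrays of cells moved to a 2% differentiation medium and harvested on day 5, untreated or given 50 ng/ml TNF-α or 10 nM BTZ on day 4. All 6 groups are the same cell line, grown first in 10% FBS, and each group has 1 array. There is therefore no spread between replicates, no test was made, and every fold below describes these arrays only. The labels give neither the source species of the TNF-α nor a vehicle for the untreated cells.

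TNF-α binds receptors at the cell surface and activates the IκB kinase complex, which marks the IκB inhibitors for destruction and so frees NF-κB dimers to enter the nucleus. NF-κB binds short κB sites in the promoters of chemokine, cytokine and acute-phase genes, and it also switches on its own inhibitors, which end the signal. In muscle, TNF-α is known as an inflammatory cytokine of injury and of wasting disease, and in myoblast cultures as a factor that holds back differentiation.

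The arrays gave values for 22180 genes, of which 13652 reached a floor of 5.06 (the median of all log2 values) on at least 1 of the 6 arrays. A gene was counted as higher or lower when the 2 arrays differed by 1 log2 unit, which is 2-fold. In the counts of list members below, rose and fell mean past 2-fold. By that rule 273 genes, 2.00% of the 13652, differed: 134 were higher with TNF-α (0.982%) and 139 were lower (1.02%). The median difference over all 13652 genes was 0.03, and 53.8% of them had a positive difference. At 4-fold the counts were 24 higher (0.176%) and 18 lower (0.132%). The counts past 2-fold given below for gene lists stand beside the shares of all genes, 0.982% higher and 1.02% lower. The untreated level of 19 of the 134 higher genes and the TNF-α level of 27 of the 139 lower genes lay under the floor, where a level is hard to tell from background. All 8 myoblast markers were above the floor on both arrays, Myod1 at 8.12 untreated and 7.70 with TNF-α and Myf5 at 8.78 and 8.67. Of these 8 markers, 7 had a negative difference, and the median was -0.48. All 8 myotube markers had a negative difference, with a median of -0.47, and 6 reached the floor on each array. Of 12 macrophage and leukocyte markers, 3 reached the floor on the untreated array and 2 on the TNF-α array. Their summed log2 level was 55.3 untreated and 55.1 with TNF-α. The defining marker Ptprc, the common leukocyte antigen, was under the floor at 3.38 and 3.32, and none of 6 T cell markers and 8 endothelial markers reached it on either array.

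**Figure D1:**
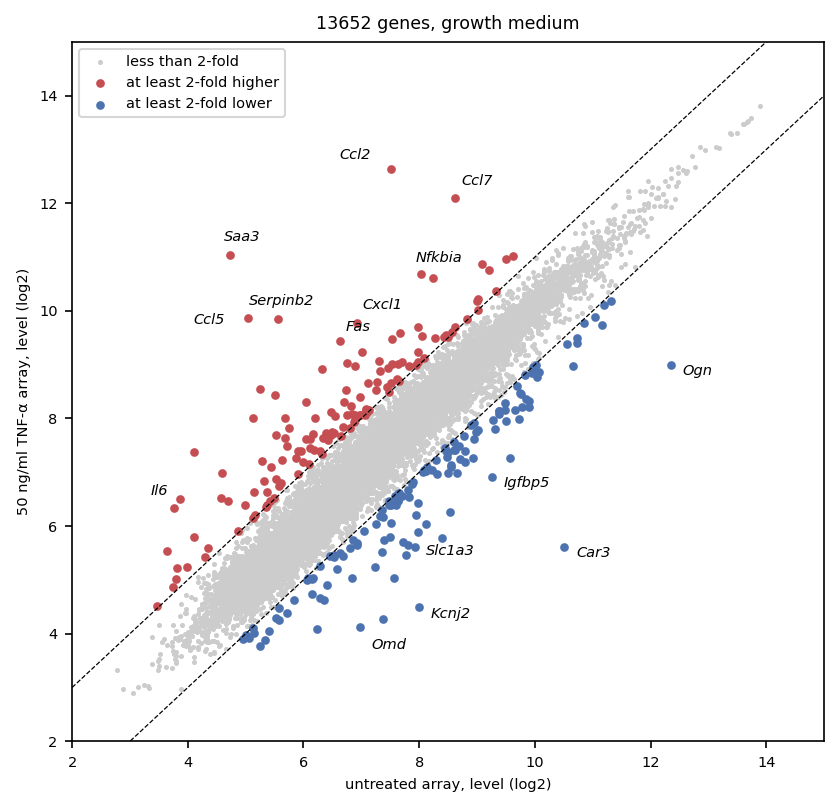
Level of each of the 13652 genes above the floor on the untreated array (horizontal axis, log2) and on the TNF-α array (vertical axis, log2), both in growth medium. Dashed lines mark 2-fold; the 134 higher genes are red, the 139 lower genes blue, with Saa3, Ccl2 and Ccl5 farthest above the lines and Car3 farthest below.

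The promoters of 5 genes that were higher and 1 that was lower are shown because each holds the κB motif GGGNNTTTCC before its start, on either strand. The table of RefSeq promoters (assembly GRCm38.p6) gave a window from 250 bases before to 50 bases after a start for 85 of the 134 higher genes and 101 of the 139 lower genes. The 250 bases before the start are printed 5′ to 3′ on the gene's strand, with the motif in capitals. Nfkbia lies at chr12:55492648-55492897 on the minus strand, Nfkb2 at chr19:46304487-46304736 on the plus strand, Tnfaip3 at chr10:19015411-19015660 on the minus strand, Cxcl1 at chr5:90890995-90891244 on the plus strand, Il6 at chr5:30012864-30013113 on the plus strand, and Il1rn at chr2:24345121-24345370 on the plus strand.

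Nfkbia: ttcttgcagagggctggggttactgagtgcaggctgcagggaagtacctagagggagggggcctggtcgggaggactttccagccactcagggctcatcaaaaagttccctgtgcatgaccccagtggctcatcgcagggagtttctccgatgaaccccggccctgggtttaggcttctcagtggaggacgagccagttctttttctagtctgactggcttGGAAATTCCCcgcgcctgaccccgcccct

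Nfkb2: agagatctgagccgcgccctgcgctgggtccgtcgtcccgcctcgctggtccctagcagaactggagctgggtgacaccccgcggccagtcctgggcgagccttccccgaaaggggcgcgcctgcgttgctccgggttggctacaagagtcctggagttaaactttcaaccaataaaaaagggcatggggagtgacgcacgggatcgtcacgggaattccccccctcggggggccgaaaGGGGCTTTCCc

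Tnfaip3: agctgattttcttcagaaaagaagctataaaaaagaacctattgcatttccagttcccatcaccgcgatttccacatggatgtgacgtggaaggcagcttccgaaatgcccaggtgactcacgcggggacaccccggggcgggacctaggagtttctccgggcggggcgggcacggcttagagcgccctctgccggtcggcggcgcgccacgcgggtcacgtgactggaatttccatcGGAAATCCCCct

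Cxcl1: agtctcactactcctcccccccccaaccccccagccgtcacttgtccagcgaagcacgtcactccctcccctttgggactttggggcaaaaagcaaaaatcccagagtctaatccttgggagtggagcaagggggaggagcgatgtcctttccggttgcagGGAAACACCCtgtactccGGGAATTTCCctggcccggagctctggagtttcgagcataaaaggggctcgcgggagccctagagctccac

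Il6: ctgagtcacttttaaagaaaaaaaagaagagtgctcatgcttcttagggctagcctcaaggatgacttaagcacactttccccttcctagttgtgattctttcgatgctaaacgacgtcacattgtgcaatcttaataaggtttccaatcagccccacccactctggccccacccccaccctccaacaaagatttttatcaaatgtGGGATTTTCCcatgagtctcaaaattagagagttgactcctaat

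Il1rn: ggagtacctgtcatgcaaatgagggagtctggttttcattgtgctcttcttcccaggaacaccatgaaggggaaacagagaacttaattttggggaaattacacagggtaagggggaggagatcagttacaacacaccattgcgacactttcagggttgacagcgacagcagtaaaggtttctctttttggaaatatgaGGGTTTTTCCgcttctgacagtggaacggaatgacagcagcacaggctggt

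The first base of the motif was 29 bases before the start in Nfkbia, 11 in Nfkb2, 12 in Tnfaip3, 44 in Il6 and 51 in Il1rn. Cxcl1 held 2 matches, the nearer of them 71 bases before the start. Several starts were searched where the table gave more than 1, with a mean of 1.21 windows a gene for the higher genes and 1.27 for the lower genes. The motif was in the windows of 12 of the 85 higher genes with a promoter (14.1%), against 212 of the 10658 genes above the floor with a promoter (1.99%) and 512 of all 27025 genes in the table (1.89%). Among the 18 genes at least 4-fold higher with a promoter, 6 held it (33.3%). Among the 101 lower genes, 2 held it (1.98%), Il1rn and Pik3r3, the latter a regulatory subunit of phosphoinositide 3-kinase. Neither match, and so not the one printed for Il1rn, is in the gene's first window: with first windows alone, 11 of the 85 higher genes (12.9%), none of the 101 lower genes and 1.60% of the genes above the floor held it. The 12 higher genes with the motif were Nfkbia, Nfkb2, Tnfaip3, Cxcl1, Il6, Ccl9, Neurl3, Casp4, Ifngr2, Il4ra, Tmem176b and Sycp1. The looser form GGGNNNNNCC, which includes every match of the first, was in 70.6% of the higher genes, 64.4% of the lower genes and 70.3% of the genes above the floor. The AP-1 motif TGANTCA was in 13 of 85 higher genes (15.3%), 11 of 101 lower genes (10.9%) and 6.70% of the genes above the floor. Its share over the whole table was 8.97%. At 4-fold, 7 of the 18 higher genes held it (38.9%). A match says only that these letters stand in the window, and genes such as Ccl2 and Ccl5 had no window in the table.

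NF-κB components and inhibitors were among the genes that rose. Of 25 list members above the floor 9 were at least 2-fold higher and none lower, with a median difference of 0.71 against 0.03 for all genes. The inhibitor genes Nfkbie, Tnfaip3 and Nfkbia had the largest differences of the list. Nfkbie, which encodes IκBε, was 5.50 on the untreated array and 8.44 on the TNF-α array, and Nfkbia, which encodes IκBα, was 8.24 and 10.61, a 5.17-fold difference. Nfkbiz, which encodes the nuclear protein IκBζ, rose from 7.08 to 8.18, and Bcl3, another nuclear IκB protein, from 5.90 to 7.39. The ubiquitin-editing enzyme A20, encoded by Tnfaip3, rose from 6.32 to 8.92. Its binding partners Tnip1 and Tnip3 rose by 2.09 and 1.94 on the log2 scale, Tnip3 from 4.58, under the floor. Of the NF-κB subunits, Nfkb2 (p100) rose from 7.31 to 9.07 and Relb from 6.42 to 7.60, while Rel was 8.62 and 8.75. The inhibitor of NF-κB kinase subunits stayed under 2-fold, Ikbkb with a difference of 0.17 and Ikbkg, the regulatory subunit NEMO, with -0.44. Nfkb1, Chuk and Traf3 were not analysed here because no probe set names them alone. The levels on the BTZ array of the same medium were 7.92 for Nfkbia, 5.83 for Nfkbie and 6.68 for Tnfaip3, each nearer to the untreated than to the TNF-α level.

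TNF receptors and the ligand's own gene stayed under 2-fold. The level of Tnfrsf1a, the main TNF receptor, was 9.09 untreated and 8.86 with TNF-α, and that of Tnfrsf1b, the second receptor, 7.76 and 8.16. Tnf itself was under the floor on all 6 arrays, at 4.89 and 4.90 in this pair. Of 29 TNF-family and death-signalling genes above the floor, 2 rose and none fell, against 0.982% and 1.02% of all genes. The median difference was 0.37, and over all 36 measured members it was 0.16. Fas, a death receptor, rose from 6.63 to 9.43 (6.96-fold), and Casp4, an inflammatory caspase, rose by 2.33 from 5.67 (5.02-fold). The BTZ array was low for Fas, at 5.69, and at 7.66 for Casp4 it lay near the TNF-α array.

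Chemokines held 3 of the 5 largest positive differences. Ccl2, which draws monocytes, rose from 7.52 to 12.63 (34.6-fold), and its chromosomal neighbour Ccl7, a ligand of the same receptor, from 8.62 to 12.09 (11.1-fold). Ccl5, a ligand for T cells and monocytes, rose from 5.04, just under the floor, to 9.86, at least 27.9-fold counted from the floor. The neutrophil chemokines Cxcl1 and Cxcl5 rose from 6.92 to 9.78 and from 8.03 to 10.68. Smaller rises were those of Cxcl16, by 1.82, Cxcl10, by 1.78 from a level of 4.69, Ccl8, by 1.48, and Ccl9, by 1.21. In all, 9 of 20 chemokine genes above the floor rose and none fell, and the list's median difference was 0.84. The floor could be reached on any array: 15 members reached it untreated and 17 with TNF-α. Over all 25 measured members the median was 0.66. The others above the floor ranged down to -0.46 for Cxcl13, and Cxcl12, a constitutive chemokine, was 8.60 and 8.55. On the BTZ array Ccl2 was 6.41, Ccl7 7.20, Cxcl1 5.39 and Cxcl5 5.82, all below the untreated level, as were Cxcl10 at 4.41 and Ccl9 at 5.94. For the other 3 that rose it lay between the untreated and the TNF-α level, at 5.23 for Ccl5, 6.56 for Cxcl16 and 5.93 for Ccl8.

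Of the other cytokines, 3 of 14 above the floor rose and 2 fell. The median difference of the 14 was 0.08, and over all 22 measured members it was -0.09. Il6, an inflammatory cytokine also released by muscle, rose from 3.75 to 6.34, Il1a from 3.65 to 5.54 and Tslp, an epithelial-type cytokine, from 4.11 to 5.79. All 3 untreated levels were under the floor. Counted from it, the rises were at least 2.42-fold for Il6 but only 1.39-fold for Il1a and 1.66-fold for Tslp. With the floor at the 70th percentile, 1 of the 10 cytokines left rose and 2 fell. The interleukin-1 receptor antagonist Il1rn, whose product opposes Il1a, fell from 6.93 to 5.65, and the alarmin Il33 from 6.84 to 5.04, just under the floor. Lif, of the IL-6 family, had a difference of 0.89, and Csf1 was 11.12 and 11.17. The receptors Il4ra and Ifngr2 rose by 1.05 and 1.01 on the log2 scale, both just past the 2-fold line. After quantile normalization they were under it, at 0.97 and 0.93. Cxcr4, the receptor for Cxcl12, fell from 8.79 to 7.19, a level near its 6.95 on the BTZ array. None of 20 genes of JAK-STAT signalling and its feedback passed 2-fold. Their median difference was 0.16, with Jak2 at 0.76 and Socs3, the feedback inhibitor of IL-6 signalling, at 0.22.

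Saa3, a serum amyloid A gene made outside the liver, had the largest difference of any gene, also when counted from the floor. It rose from 4.73 on the untreated array, under the floor, to 11.04 on the TNF-α array, at least 63.1-fold counted from the floor. It was 4.59 on the BTZ array. Other acute-phase and complement genes that rose were Cp (ceruloplasmin), from 7.01 to 9.23, Hp (haptoglobin), from 5.28 to 7.20, Cfb (complement factor B), from 4.99 to 6.39, and Ptx3 (a long pentraxin), from 5.86 to 7.26. In all 5 of 15 members above the floor rose and none fell, with a median difference of 0.26. Over all 24 measured members the median was 0.11. The complement gene C1qa had a difference of 0.12, and Lbp, the lipopolysaccharide-binding protein, -0.35. Slpi, a secreted inhibitor of leukocyte proteases, rose from 5.43 to 7.09, though it was in no fixed list.

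Genes of microbial sensing and antigen presentation rose in part. Clec4e, which encodes the receptor Mincle, rose from 4.11, under the floor, to 7.37 (at least 4.97-fold counted from the floor), Tlr2 from 6.18 to 7.42 and Cd14, a co-receptor for lipopolysaccharide, from 6.32 to 7.34. These were the 3 of 22 pattern recognition genes past 2-fold, where 0.982% of all genes were higher. Cd14 was highest on the BTZ array, at 8.32, and its difference with TNF-α was 0.97 after quantile normalization. Cd53, a tetraspanin known from leukocytes and counted among the macrophage markers, rose from 5.37 to 6.64, and it was the only such marker past 2-fold. Of 18 class I presentation genes 3 rose and none fell: Erap1, which trims peptides, from 6.74 to 8.52, H2-K1, a class I heavy chain, from 6.55 to 8.04, and the immunoproteasome subunit Psmb10, from 6.98 to 8.40. Psmb8, another immunoproteasome subunit, was 5.47 and 5.55. Of 27 interferon-stimulated genes 2 passed 2-fold: the transcription factor Irf1, from 6.49 to 7.75, and Bst2 (tetherin), right at the line, from 5.35 to 6.35. Parp14 and Ddx58 lay just short of the line, and shifting the arrays to a common median brought the list's count to 5.

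**Figure D2:**
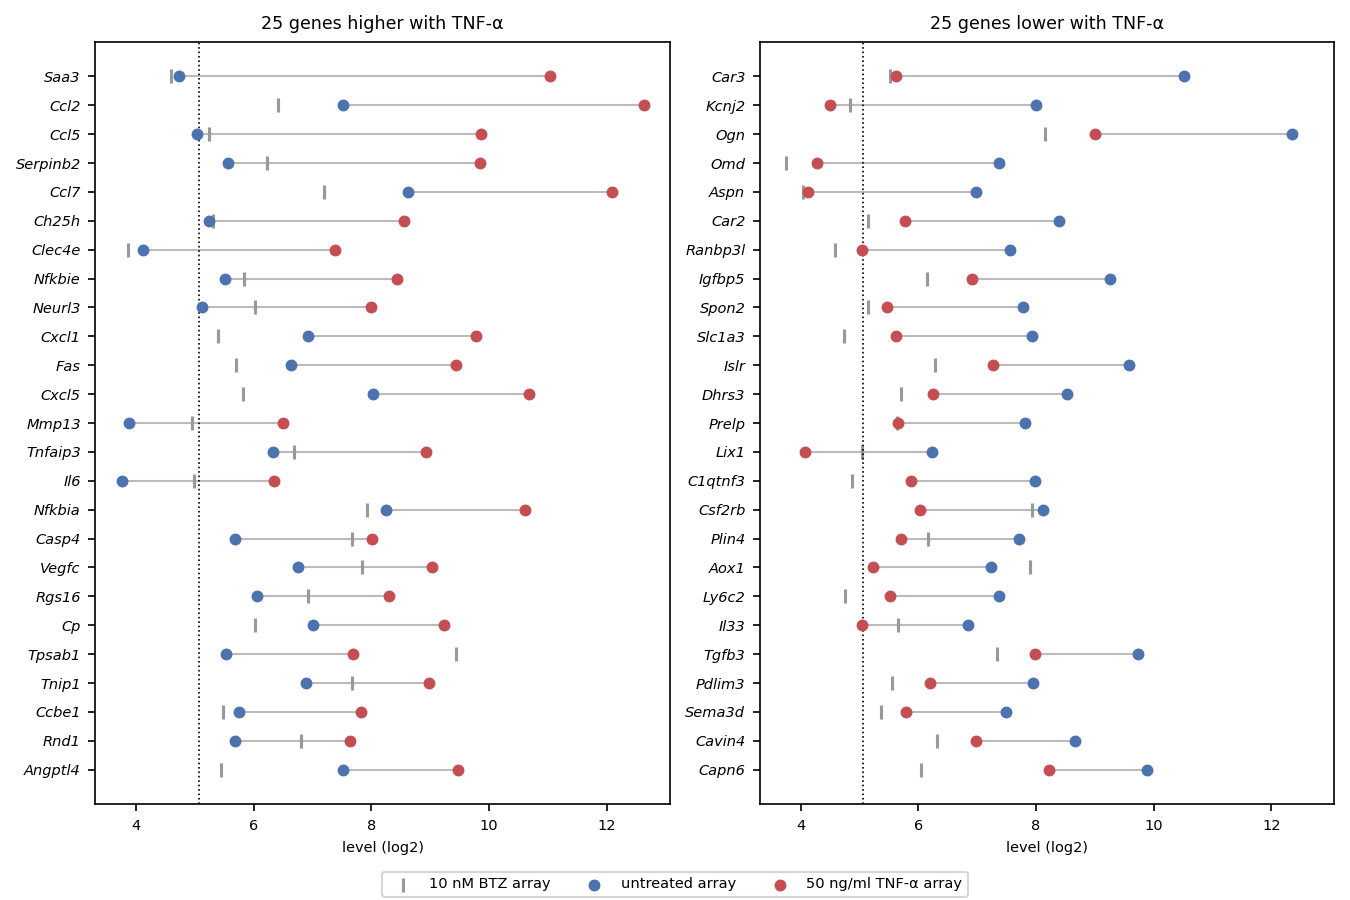
Log2 level (horizontal axis) of the 25 named genes with the largest positive and the 25 with the largest negative difference in growth medium. Blue points are the untreated array, red points the TNF-α array, grey ticks the BTZ array, and the dotted line the floor of 5.06; for Saa3 the untreated and BTZ levels are both under the floor, whereas for Car3 the TNF-α and BTZ levels, 5.62 and 5.51, lie together.

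Serpinb2, which encodes an inhibitor of plasminogen activators, rose from 5.55 to 9.85 (19.7-fold). It was the only rise past 2-fold in its list of 16 serpin, plasminogen and coagulation genes, of which 5 had a positive difference. Past 2-fold 3 fell. F3, which encodes tissue factor, the trigger of coagulation, fell from 9.66 to 8.15, Serpinb1a, an inhibitor of neutrophil proteases, from 8.79 to 7.40, and Serpinb8 from 6.46 to 5.45, a difference that was -0.95 after a shift of the arrays to a common median and -0.98 after quantile normalization. Of 25 matrix proteases and inhibitors, 3 rose and 1 fell. The collagenase Mmp13 rose from 3.87, under the floor, to 6.50, Adamts7 from 6.82 to 8.24 and the gelatinase Mmp9 from 5.48 to 6.53. The aggrecanase Adamts5 fell from 8.95 to 7.62. The abundant members were under 2-fold, with differences of -0.92 for Mmp14, -0.68 for Mmp2 and -0.69 for Timp2.

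Enzymes of oxidative and lipid defence gave 2 rises among 26 genes, where 0.982% of all genes rose. Sod2, the mitochondrial superoxide dismutase, rose from 9.50 to 10.97, with the BTZ array at the untreated value of 9.50. Ch25h, which makes 25-hydroxycholesterol, rose from 5.24 to 8.55, and its 2 probe sets differed in size, by 5.16 and 1.46. Nos2, the inducible nitric oxide synthase, was 5.23 and 5.47, and Ptgs2, which encodes COX-2, 10.83 and 11.44. The amino acid transporters Slc7a2, for arginine, and Slc7a11, for cystine, rose by 1.71 and 1.25. Slc7a11 went from 3.99, under the floor, to 5.24, at least 1.13-fold counted from the floor. Its 2 probe sets gave 1.98 and 0.51, the second with both levels, 2.88 and 3.39, under the floor.

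Among growth factors, 4 rose and 2 fell of the 27 above the floor. Vegfc, the lymphatic growth factor, rose from 6.75 to 9.02, Angptl4, an inhibitor of lipoprotein lipase, from 7.52 to 9.47, Gdnf, a trophic factor of motor neurons, from 6.70 to 8.30, and Fgf7 from 7.71 to 9.06. Pdgfrb, the PDGF receptor beta, and Vegfd fell by 1.08 and 1.04, and Vegfd was at -0.98 after the median shift. Vcam1, which binds leukocyte integrins, rose from 9.09 to 10.86, and Itga7, the laminin-binding integrin of muscle, from 9.01 to 10.01. Icam1, another leukocyte ligand, was 5.35 and 5.44. Itga7 lay at the line, and its difference was 0.95 after quantile normalization. Further named genes among the 25 highest were Neurl3, a ubiquitin ligase, which rose by 2.88 from 5.12, Rgs16, a brake on G protein signalling, from 6.05 to 8.30, Ccbe1, a cofactor of Vegfc, from 5.75 to 7.82, Rnd1 from 5.68 to 7.64, and Tpsab1, a mast cell tryptase, from 5.53 to 7.68. Tpsab1 was higher still on the BTZ array, at 9.44.

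The largest fall was that of Car3, the carbonic anhydrase typical of slow muscle, from 10.51 on the untreated array to 5.62 on the TNF-α array (29.6-fold). Its 2 probe sets fell by 5.52 and 4.26. The adjacent gene Car2 fell from 8.39 to 5.77 and Car13 of the same cluster from 11.03 to 9.89, while Car1, which lies between Car13 and Car3, was under the floor at 3.44 and 3.28. Those 3 were the only ones past 2-fold among 11 carbonic anhydrases above the floor, and Car8 and Car5b had differences of -0.63 and -0.75. The BTZ array read 5.51 for Car3, 5.15 for Car2 and 9.48 for Car13, so for each the untreated array stood apart as the high one.

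Small leucine-rich proteoglycans, which bind collagen fibrils and growth factors in the matrix, included 6 genes that fell and none that rose among 10 members above the floor. The median difference of the 10 was -1.24. Over all 14 measured members, with the 4 under the floor, it was -0.52. Ogn (osteoglycin) fell from 12.35 to 9.00 (10.2-fold), Omd (osteomodulin) from 7.37 to 4.27 and Aspn (asporin) from 6.98 to 4.12. The TNF-α levels of Omd and Aspn were under the floor, at least 4.95-fold and 3.79-fold counted to the floor. Prelp fell from 7.81 to 5.65, Fmod (fibromodulin) from 6.69 to 5.45 and Dcn (decorin) from 6.92 to 5.69. The probe sets disagreed in size for Prelp, at -3.69 and -0.62, and for Fmod, at -1.86 and -0.62. Bgn (biglycan) was 11.24 and 11.19. On the BTZ array Ogn was 8.15, Omd 3.75, Aspn 4.04, Prelp 5.63 and Fmod 5.45, each below or close to the TNF-α level.

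Some collagens and other matrix genes fell as well. Of 21 collagen genes 5 fell and none rose, with a median difference of -0.54. The 3 type VI genes, which make the microfibrils around muscle cells, fell by similar amounts, Col6a1 by 1.52, Col6a2 by 1.47 and Col6a3 by 1.31. Col12a1 fell from 11.15 to 9.73 and Col3a1 from 10.73 to 9.40. The type I chains were just under 2-fold, Col1a1 at -0.95 and Col1a2 at -0.93, and Col5a3 had a positive difference of 0.88. Of 31 matrix glycoproteins and crosslinking genes 5 fell and none rose: Mgp (matrix Gla protein) by 1.67, Nid2 (nidogen 2) by 1.50, Fbln5 (fibulin 5) by 1.20, Ccn5 by 1.17 and Thbs2 (thrombospondin 2) by 1.08. Fn1 (fibronectin) was 12.60 and 12.57. Further secreted genes among the 25 lowest were Spon2, from 7.78 to 5.46, and Islr, a marker of mesenchymal cells, from 9.57 to 7.26. The collagen levels on the BTZ array were lower still for Col3a1, at 7.15, Col1a1, at 7.10, and Col1a2, at 5.90.

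Genes of growth and patterning signals fell in part. In the insulin-like growth factor axis 4 of 17 genes fell and none rose: Igfbp5, a binding protein induced as myoblasts differentiate, from 9.25 to 6.92, Igf1 from 6.59 to 5.20, Igfbp6 from 9.94 to 8.85 and the receptor substrate Irs1 from 8.09 to 7.02. In the TGF-β, activin and BMP list of 32 genes, Tgfb3 fell from 9.73 to 7.99, Bmp4 from 9.90 to 8.33 and Smad6, the inhibitory Smad of BMP signalling, from 7.63 to 6.49. Ltbp2, a latent TGF-β binding protein homologue, rose from 8.27 to 9.49. Id3, a target of BMP signalling and an inhibitor of differentiation factors, fell from 9.75 to 8.47, and Id1 and Id2 had differences of -0.81 and -0.82. Of 30 Wnt pathway genes 3 fell and none rose: Lgr4, the R-spondin receptor, by 1.56, Lrp4 by 1.20 and Wnt4 by 1.19. The Wnt antagonists Sfrp1 and Sfrp2 were at -0.88 and -0.97.

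Muscle regulators and sarcomere genes differed by less than 2-fold with few exceptions. Of 21 myogenic regulators and fusion genes above the floor, 19 had a negative difference, and the list's median was -0.38. Of all genes above the floor, 53.8% had a positive difference. Eya4 fell from 10.03 to 8.77, and Itga7, described above, was the only rise past 2-fold. Pax7, the satellite cell factor, was 7.50 and 6.74, Myog (myogenin) 6.71 and 5.97, and Des (desmin) 10.77 and 10.23. Among 32 sarcomere genes Tnnt2, cardiac troponin T, which is made early in myoblast differentiation, rose from 9.01 to 10.21 and none fell past 2-fold. Of the 32, 26 had a negative difference, and the list's median was -0.31. The ubiquitin ligase gene Fbxo32 (atrogin-1), a marker of muscle wasting, rose from 7.53 to 9.01. It was the only one of 25 wasting and autophagy genes past 2-fold, where 2.00% of all genes passed it in either direction. Trim63 (MuRF1) was 4.91 and 5.25. The muscle ion channel gene Cacng1 fell from 7.48 to 6.40. The inward rectifier Kcnj2, whose current holds the resting potential of fusing myoblasts, fell by 3.51 to 4.49, under the floor (at least 7.68-fold counted to the floor). Its neighbour Kcnj16, in no fixed list, fell from 5.58 to 4.26, also under the floor (at least 1.43-fold counted to it). Pdlim3, which encodes a Z-disc protein, and Cavin4, a caveolar coat protein of muscle, fell by 1.74 and 1.68. Both genes were lower again on the BTZ array, at 5.55 and 6.31.

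Cholesterol synthesis genes mostly had small negative differences. Of 21 genes above the floor 20 had a negative difference, whereas 53.8% of all genes had a positive one. Past 2-fold 4 fell and none rose. The list's median difference was -0.61, with a range from -1.17 to 0.32. Insig1, the sterol sensor's partner, fell from 10.56 to 9.39, Hmgcs1, which makes HMG-CoA, from 11.31 to 10.18, Lss from 8.78 to 7.67 and Cyp51 from 9.83 to 8.82, which was -0.96 after the median shift. Abca1, the exporter of cholesterol, was the single positive member, at 4.61 and 4.94, both under the floor. With the floor required on 1 of the 2 arrays compared, 20 members were left and none was positive. In the retinoid list Dhrs3, a retinaldehyde reductase, fell from 8.53 to 6.26, and Crabp2, which carries retinoic acid, from 8.93 to 7.26, the 2 genes of 11 past the line. Other genes among the 25 lowest were Plin4, a lipid droplet coat protein, from 7.71 to 5.70, the aldehyde oxidase Aox1, from 7.24 to 5.23, the calpain family gene Capn6, from 9.89 to 8.21, and the semaphorin Sema3d, from 7.49 to 5.80. C1qtnf3 fell from 7.98 to 5.88, Lix1 from 6.23 to 4.08 and Ly6c2 from 7.36 to 5.51. The TNF-α level of Lix1 was under the floor, at least 2.25-fold counted to the floor. On the BTZ array Aox1 was the high one, at 7.89, while Capn6 was lower again, at 6.05.

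Lists of growth-related genes stayed mostly under 2-fold. The few members past it stand beside 0.982% of all genes higher and 1.02% lower. All 36 mitosis and DNA replication genes had a positive difference, against 53.8% of all genes above the floor. They lay between 0.02 and 0.91 with a median of 0.34, and none passed 2-fold. After quantile normalization 35 of the 36 were positive. All 24 ribosomal protein genes were positive, between 0.16 and 0.96, with a median of 0.38. The 11 housekeeping genes had a median of 0.18, with Gapdh at -0.03 and Actb at 0.08, so small shared positive values also appeared there. Of 34 AP-1 and immediate early genes, Plk2 and Ier3 rose by 1.55 and 1.40, and Egr1 and Fos fell by 1.31 and 1.13. Junb was 8.92 and 9.75, and Myc 9.26 and 10.08. Gadd45b, a stress gene that NF-κB activates, rose from 7.52 to 8.65, alone past 2-fold among 26 cell cycle genes. Psmd10 had a difference of 1.06, alone past 2-fold in the list of 31 proteasome genes, and 0.95 after quantile normalization. The 10 metallothionein and zinc transporter genes stayed within 2-fold, with Slc39a14 at 0.88.

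**Figure D3:**
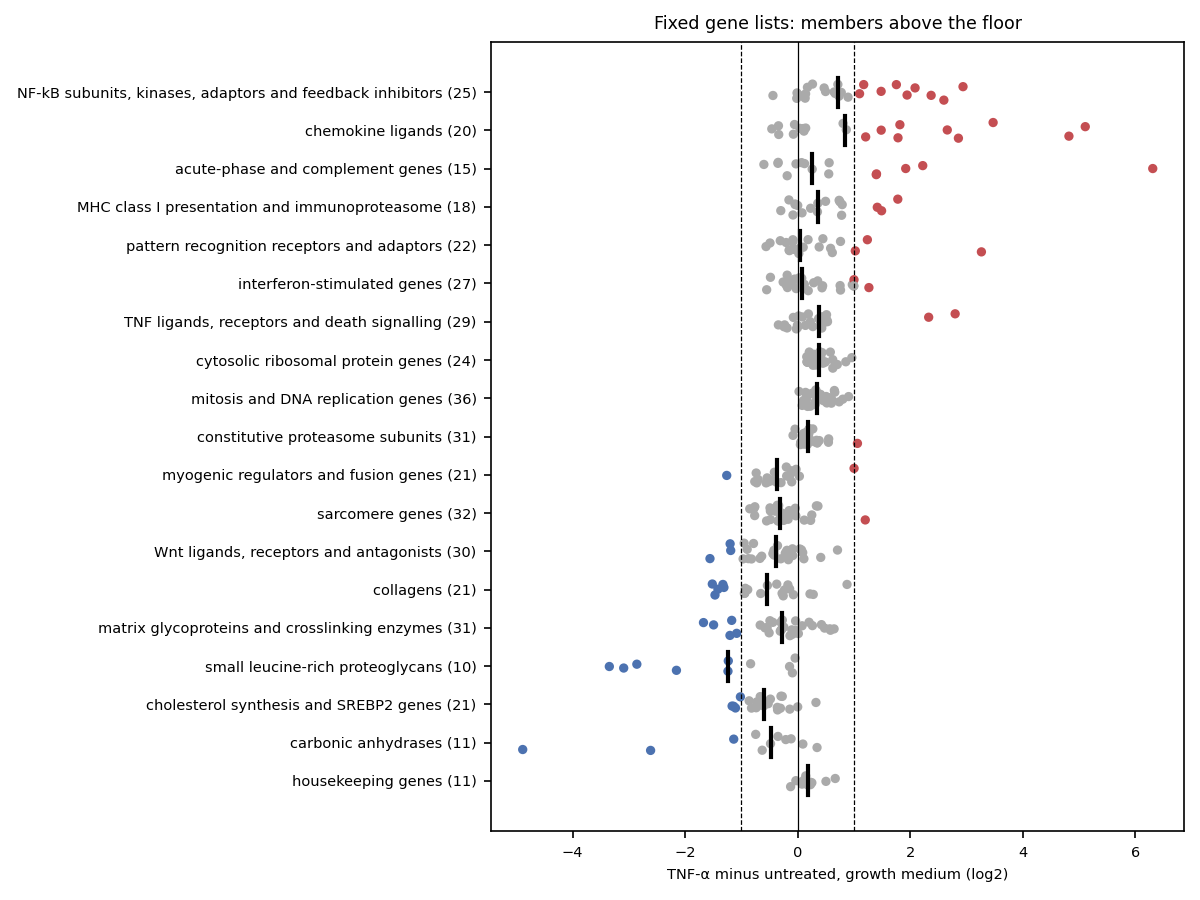
Difference TNF-α minus untreated in growth medium (horizontal axis, log2) for the members above the floor of 19 fixed lists, each point a gene and each black bar the list's median, with the number of members in brackets. Red points are at least 2-fold higher and blue points at least 2-fold lower; the NF-κB and chemokine lists have medians of 0.71 and 0.84, the small leucine-rich proteoglycans -1.24 and cholesterol synthesis -0.61.

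Some of the genes past 2-fold lay side by side on a chromosome. In RefSeq order (GRCm38.p6) of 22139 measured genes, 17 adjacent pairs were past 2-fold in the same direction, 5 of them higher and 12 lower, and 33 of the 273 genes were in such a pair. The next gene in order was also higher for 3.73% of the 134 higher genes, where 0.605% of all genes in order were higher. It was also lower for 8.63% of the 139 lower genes, where 0.628% of all were lower. These shares are descriptions, and neighbours can be related genes. The longest run was Aspn, Omd and Ogn, with differences of -2.86, -3.09 and -3.35. Aspn and Omd were under the floor with TNF-α. On one side of the run Ecm2, of the same protein family, was at -0.84, with both levels, 4.84 and 4.00, under the floor. On the other side Nol8 was at 0.45. Prelp and Fmod were adjacent with -2.16 and -1.24, and Optc, the next proteoglycan gene, was at -0.09. The type VI genes Col6a2 and Col6a1 made another such pair. Among the higher genes were Ccl2 with Ccl7, Ccl5 with Ccl9, and Fas with Ch25h at 2.80 and 3.31, while the flanking Acta2 and Lipa were at -0.03 and 0.06. Csf2rb, the common beta chain of cytokine receptors, and Csf2rb2, the IL-3-specific beta chain, fell by 2.09 and 1.12. Csf2rb2 went from 5.14 to 4.01, under the floor, at least 1.05-fold counted to the floor. The sequences of Csf2rb and Csf2rb2 are alike enough that probe sets may share signal. The transporter Slc1a3 and Ranbp3l fell by 2.31 and 2.52, Ranbp3l to just under the floor. The imprinted genes Zim1 and Peg3 fell by 1.46 and 1.21.

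**Figure D4:**
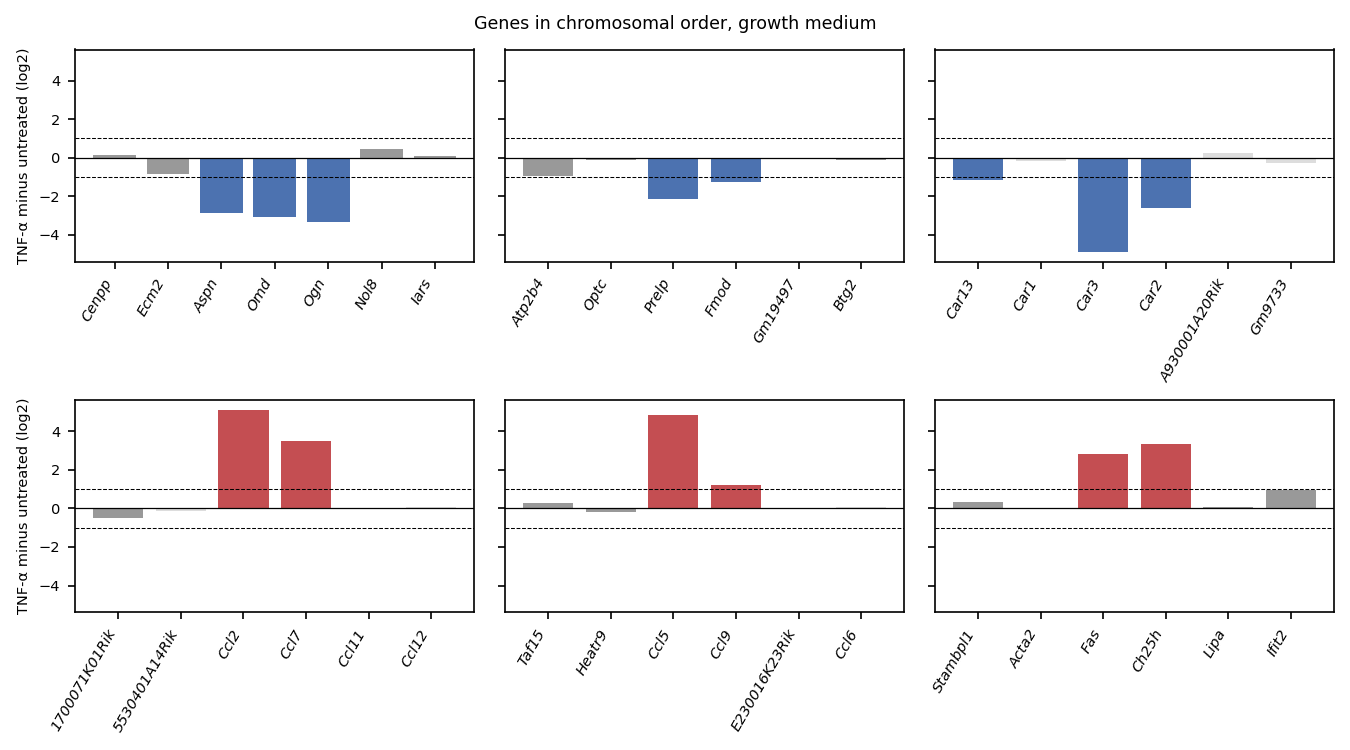
Difference TNF-α minus untreated in growth medium (vertical axis, log2) of genes in chromosomal order at 6 runs of neighbours, with the 2 measured genes on each side. Bars are red or blue past 2-fold, dark grey under it and light grey for genes under the floor on all 6 arrays. The run of Aspn, Omd and Ogn is flanked by Ecm2 at -0.84, with both growth-medium levels under the floor, and Nol8 at 0.45.

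The same dose given on day 4 of differentiation was measured on a pair of arrays that shares none with the growth-medium pair. In that pair 394 genes (2.89%) passed 2-fold, 274 of them upward with TNF-α (2.01%) and 120 downward (0.879%). Of the 134 genes higher in growth medium 74 were among them, which is 55.2% of the first list and 27.0% of the second, and 120 had a positive difference there (89.6%, against 51.0% of all genes above the floor). Of the 139 lower genes 39 were lower there, which is 28.1% and 32.5% of the lists, and 122 had a negative difference (87.8%, against 49.0% of all genes). The median difference of the 134 was 1.35 in growth medium and 1.12 in differentiation medium, and that of the 139 was -1.23 and -0.62. The 2-fold rule was applied to the growth-medium difference alone, but the floor could be reached on any array, including those of differentiation medium. Of the 273 genes, 5 were under the floor on both growth-medium arrays. Among them Olfr810, at 3.74 untreated and 4.87 with TNF-α, reached the floor only with TNF-α in differentiation medium, at 8.97. Olfr810 counts among the 74 and the 120 genes, so the selection was not fully independent of the other pair. Across all 13652 genes the differences correlated with a Pearson r of 0.476, given as a description, since all genes were read from the same 4 arrays.

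Some genes passed 2-fold in 1 medium and not in the other, and none of these contrasts was tested. Serpinb2 was 4.30 in growth medium and 0.84 in differentiation medium, Neurl3 2.88 and, right under the line, 0.99, Tpsab1 2.15 and 0.70, and Fbxo32 1.48 and -0.18. Slc1a3 was -2.31 and -0.38, Igfbp5 -2.33 and -0.72, and Cavin4 -1.68 and -0.07. The cholesterol list had a median of -0.61 in growth medium and -0.15 in differentiation medium, where none of its members fell past 2-fold. F3 and Adamts5, which fell in growth medium, had positive differences of 0.79 and 0.98 in differentiation medium. In the other direction, Cxcl9 was 0.11 in growth medium and 5.52 in differentiation medium, Lbp -0.35 and 4.52, Nos2 0.25 and 4.58, Cybb, a subunit of the phagocyte oxidase, 0.17 and 5.81, and Icam1 0.08 and 1.99. Cfb and Ptx3 rose in both, by 1.40 and 1.40 in growth medium and by 6.97 and 5.76 in differentiation medium. Aspn, at -2.86 and -4.18, and Omd, at -3.09 and -3.58, were low with TNF-α in both media, with TNF-α levels under the floor in each.

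**Figure D5:**
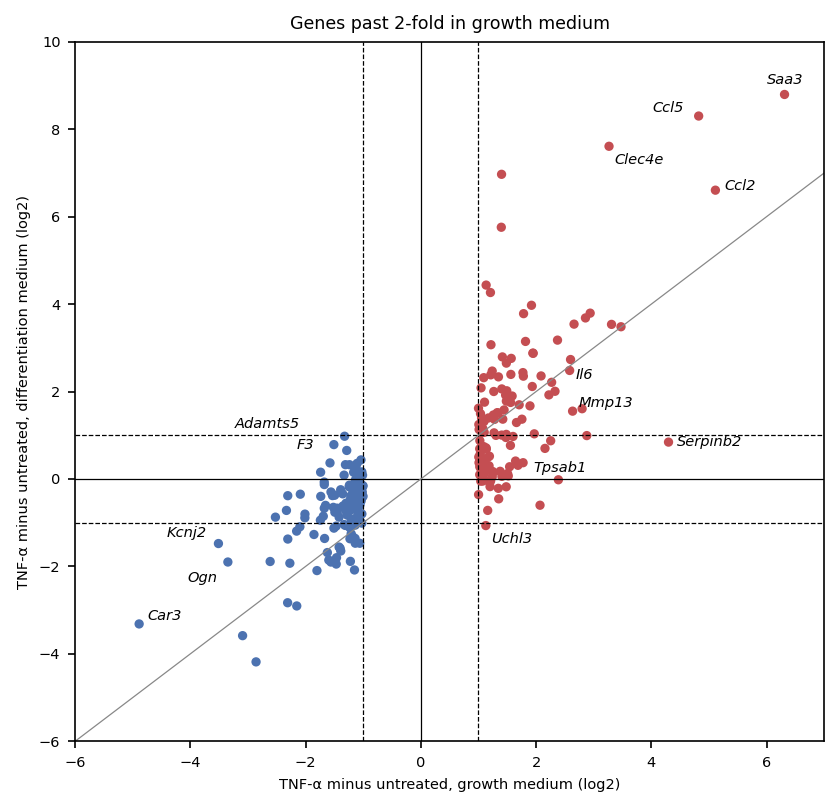
Difference TNF-α minus untreated in growth medium (horizontal axis, log2) and in differentiation medium (vertical axis, log2) for the 273 genes past 2-fold in growth medium. Dashed lines mark 2-fold and the diagonal marks equal differences; Serpinb2, at 4.30 and 0.84, lies far below the diagonal, Clec4e, at 3.27 and 7.61, far above it, and Uchl3 is past 2-fold in opposite directions, with both of its differentiation-medium levels under the floor.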

How the data were processed

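C2C12 RNA from 6 cultures was measured on Affymetrix whole-transcript arrays, 1 per group, per the labels' protocols. The deposited series table holds the authors' processed log2 expression values for 41345 probe sets. The software, background correction and normalization behind them: not given in the sources used here. Array medians were 5.01 to 5.11. With 1 array per group their number limits the precision, and no interval or p-value is given. GEO's platform annotation named a single symbol for 23521 probe sets, several for 1814 and none for 16010. Entrez identifiers matched 23328 of the 23521 to RefSeq. Genes are means of their single-symbol probe sets, and they were kept when the highest of 6 arrays reached the median of all values. A difference of 1 log2 unit was counted, in both directions. The 43 gene lists and the genes described were chosen with earlier results of these data known. Named genes are the 25 highest and 25 lowest (leaving out predicted genes, small RNAs and chemosensory receptors), list members past 2-fold, and list members given for their role. Alternatives were a median shift, quantile normalization, the probe set with the highest mean, and other floors. The steps were run on simulated arrays with large known changes and little noise. That checks the arithmetic and not the calls made in these data. Python 3.11.15, pandas 2.3.3, numpy 2.4.6 and matplotlib 3.10.9 were used.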

Additional observations from a re-analysis of the deposited data

Results flagged for a closer look

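Uchl3, a ubiquitin hydrolase gene, was past 2-fold in opposite directions with TNF-α, higher by 1.13 in growth medium and at -1.07 in differentiation medium. Its levels were 4.30 untreated and 5.42 with TNF-α in growth medium, so the untreated value lay under the floor of 5.06. In differentiation medium they were 4.39 and 3.33, both under the floor, so the difference there lies among values hard to tell from background. The difference between the media was not tested. Of 8413 probe sets above the floor that the annotation names for no gene, 279 were at least 2-fold higher with TNF-α and 297 lower. Together they were 6.85%, against 2.00% of the 13652 genes past 2-fold. A gene's value is a mean of its probe sets, but only 1082 of the 22180 genes had more than 1. The gap between the shares was not tested. Differences of the unnamed probe sets ranged from -3.31 to 3.37. The unnamed probe sets entered no gene value here.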

How the results depend on the processing

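No paired analysis was possible because each group has a single array and the groups share only the replicate number 1. The count of higher genes was 134 as deposited and ran from 119 (quantile normalization) to 164 (arrays shifted to a common median), and that of lower genes was 139 and ran from 119 (median shift) to 156 (quantile normalization), over 6 alternatives. The share of higher among all genes past 2-fold was 49.1% as deposited, 58.0% after the median shift and 43.3% after quantile normalization. The median shift kept 253 of the 273 genes, quantile normalization 249, the floor at the 70th percentile 248, and the probe set with the highest mean 270. Of the 249 genes past 2-fold left without predicted genes, small RNAs and chemosensory receptors, 214 stayed past it under every alternative that gave a value, and none changed sign. The crossings included Fmod, at -0.62 with its brightest probe set alone. List medians within about 0.1 of zero changed sign with some settings, among them cytokines, adhesion, proteases, ion channels and the insulin-like growth factor axis. No error can be set on any single difference.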

Other observations

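Small nucleolar RNAs, which guide the modification of ribosomal RNA, were looked at after their values were seen. Of 69 above the floor 9 were at least 2-fold higher with TNF-α in growth medium and none lower, against 0.982% of all genes higher. A positive difference was found for 58 of the 69, against 53.8% of all genes, with a median of 0.41. The 9 were Snora20, Snora41, Snora44, Snora69, Snora75, Snora78, Snord43, Snord53 and Snord73a. Snora20 was 5.71 untreated and 7.48 with TNF-α, and Snora75 7.46 and 8.93. In differentiation medium none of the 69 was higher and 1 was lower, with a median of -0.03. The protein-coding genes Dkc1 (dyskerin, which binds such RNAs), Rcl1 and Ppan, both of ribosome assembly, were at 1.08, 1.10 and 1.01 in growth medium, and Dkc1 was right under 2-fold and Ppan at 0.92 after quantile normalization.

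Genes of nerve contact, also chosen after their values were seen, did not move as a block. Musk, the receptor kinase of the neuromuscular junction, fell from 7.82 to 6.54, and its partner Lrp4 from 8.48 to 7.27. Agrn, their ligand, was 6.78 and 6.98, Rapsn, which anchors acetylcholine receptors, 7.75 and 8.44, Chrna1 10.17 and 9.44, and Chrnd 6.17 and 6.88. Of 19 semaphorin genes above the floor, Sema3d, Sema3e and Sema3a fell by 1.69, 1.24 and 1.14, and Sema7a, the membrane-anchored member, rose from 7.82 to 8.98. Plxna2, which encodes a semaphorin receptor, fell from 8.55 to 7.10, and the co-receptors Nrp1 and Nrp2 were at -0.12 and 0.09. Cdon, a myoblast surface receptor that promotes differentiation, fell from 9.76 to 8.46, and its relative Boc was 6.61 and 6.36.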
